A study of Homo sapiens with 22 samples.

Results

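RAD21 peaks of clone D7 after 4 h and after 24 h of dTAGV-1 were compared, 1 ChIP-seq library each. A peak was in both lists when it shared at least 1 bp with a peak of the other, and otherwise only at 4 h or only at 24 h. The lists held 39059 and 30114 peaks, together 69173 of the 341123 peaks in 12 lists. Clone D7 is a single clone of hTERT RPE-1, human retinal pigment epithelial cells immortalised with telomerase, with the genotype mGreenLantern-P2A-FKBP12(F36V)-NIPBL. The degron tag on NIPBL is carried in every group of the clone, the control included. dTAGV-1 joins that tag to a ubiquitin ligase, which leads to degradation of the tagged protein. NIPBL protein was not measured in the files, so its loss at either time was not checked here. Cells were cycling and unsynchronised, and about 10% mouse NIH/3T3 cells had been added as a spike-in. Beside these lists, the control of the clone (DMSO, 24 h), the RAD21 lists of clone A2 (mCherry-P2A-FKBP12(F36V)-NIPBL, with the same 3 treatments), the STAG1, STAG2 and PDS5A lists of clone D7, and the CTCF and WAPL lists of wild-type cells were used. STAG1 and STAG2 carried no treatment label, and PDS5A was precipitated after DMSO. With 1 library a group no difference below has a replicate check, no p-value was computed, and the 95% Wilson and Newcombe intervals cover counting error only. The stronger sites found only at 24 h overlapped the clone A2 DMSO and 4 h lists and STAG2 more often than the control of clone D7. Values are given below, and these sites were picked for having no 4 h peak in clone D7. The clone D7 control held 94.6% of the 24 h peaks in both lists. The clone A2 DMSO list held 94.1% of them, the clone A2 4 h list 78.7% and STAG2 64.1%. Each 4 h against 24 h result rests on the 2 clone D7 libraries being what their labels say.

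RAD21 is the kleisin that closes the ring of cohesin, the complex that extrudes chromatin loops. NIPBL activates the cohesin ATPase, which drives loop extrusion, and it is best known as a cohesin loader. CTCF is a zinc-finger protein that halts cohesin at its binding sites, STAG1 and STAG2 are alternative cohesin subunits, and PDS5A and WAPL take part in pausing and releasing cohesin.

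Promoters that hold a RAD21 summit found at a single time are shown as examples, since sequence was at hand for promoters alone, and most such summits lay elsewhere. Each sequence is the RefSeq promoter window of GRCh38.p14, 300 bases from 250 before the transcription start to 50 after it, written 5′ to 3′ on the strand of the gene. Capitals mark the 21 bases centred on the summit. Of 12 such windows for named or listed genes, all 12 with a summit only at 4 h, the first 3 by fold are printed. PCDHGB2 and PCDHGA1 encode clustered protocadherins, adhesion proteins whose promoters are known CTCF targets, and RPS3A encodes a protein of the small ribosomal subunit. The windows are chr5:141359886-141360185, chr5:141330264-141330563 and chr4:151099378-151099677, all on the plus strand.
PCDHGB2: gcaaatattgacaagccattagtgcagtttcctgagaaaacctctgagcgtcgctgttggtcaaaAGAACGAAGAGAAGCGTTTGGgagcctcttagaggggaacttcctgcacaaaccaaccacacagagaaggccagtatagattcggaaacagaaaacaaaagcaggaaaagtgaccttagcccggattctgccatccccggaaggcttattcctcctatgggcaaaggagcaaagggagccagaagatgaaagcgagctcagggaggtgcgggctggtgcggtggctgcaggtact
PCDHGA1: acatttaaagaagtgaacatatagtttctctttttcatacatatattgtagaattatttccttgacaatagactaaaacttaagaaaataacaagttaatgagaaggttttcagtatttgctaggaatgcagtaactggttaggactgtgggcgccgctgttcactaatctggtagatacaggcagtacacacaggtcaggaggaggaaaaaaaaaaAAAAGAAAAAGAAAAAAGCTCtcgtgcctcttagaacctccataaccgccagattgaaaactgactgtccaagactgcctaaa
RPS3A: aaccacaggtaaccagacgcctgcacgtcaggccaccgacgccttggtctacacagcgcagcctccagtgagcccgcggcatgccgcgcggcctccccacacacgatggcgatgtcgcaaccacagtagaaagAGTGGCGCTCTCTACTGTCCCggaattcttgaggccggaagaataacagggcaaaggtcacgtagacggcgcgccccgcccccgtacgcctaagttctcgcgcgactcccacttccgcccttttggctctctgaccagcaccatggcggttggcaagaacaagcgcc

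No named or listed gene with a window in the promoter table had a summit found only at 24 h there. The promoters with the strongest such summits, SCN2A (a neuronal sodium channel) and SORBS2 (a cytoskeletal adaptor), are shown instead, and they were chosen after their values were seen, from 41 windows. They are chr2:165239164-165239463 on the plus strand and chr4:185656697-185656996 on the minus strand.
SCN2A: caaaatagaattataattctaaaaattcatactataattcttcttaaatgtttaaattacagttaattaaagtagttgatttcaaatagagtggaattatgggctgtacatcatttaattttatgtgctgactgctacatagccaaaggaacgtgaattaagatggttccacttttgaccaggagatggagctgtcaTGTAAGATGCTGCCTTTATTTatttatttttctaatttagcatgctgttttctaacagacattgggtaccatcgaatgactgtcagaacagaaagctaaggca
SORBS2: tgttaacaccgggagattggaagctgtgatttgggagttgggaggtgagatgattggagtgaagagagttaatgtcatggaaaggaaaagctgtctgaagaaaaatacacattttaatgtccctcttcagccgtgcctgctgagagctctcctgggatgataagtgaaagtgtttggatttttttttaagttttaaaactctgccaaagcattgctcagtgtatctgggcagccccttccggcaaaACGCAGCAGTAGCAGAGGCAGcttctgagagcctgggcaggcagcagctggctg

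The summit lay 175 bases before the start at PCDHGB2, 23 before it at PCDHGA1, 107 before it at RPS3A, 43 before it at SCN2A and 6 after it at SORBS2. All 5 printed windows overlapped a CTCF peak. The next by fold of the 12, PCDHGB3 at 5.21 in the 4 h list, overlapped none and is not printed. Of all 2498 promoters with a peak at 4 h and not at 24 h, 42.3% overlapped a CTCF peak. The fold over local background was 7.92 at PCDHGB2, 6.25 at PCDHGA1 and 5.48 at RPS3A in the 4 h list. It was 13.9 at SCN2A and 8.68 at SORBS2 in the 24 h list. The G+C content was 51.3% at PCDHGB2, 36.3% at PCDHGA1, 63.0% at RPS3A, 31.7% at SCN2A and 47.3% at SORBS2, so the 2 kinds of window overlapped.

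Most sites were common to both times, and far more were found only at 4 h than only at 24 h. After merging, 43503 regions remained, of which 31.3% were found only at 4 h, 10.3% only at 24 h and 58.4% at both times. Of the 4 h peaks, 25455 (65.2%, 64.7 to 65.6) overlapped a 24 h peak and 13604 did not. Of the 24 h peaks, 25624 (85.1%, 84.7 to 85.5) overlapped a 4 h peak and 4490 did not. A peak of one list could meet several of the other: 210 of the 4 h peaks overlapped more than 1 peak at 24 h, and 46 of the 24 h peaks the reverse. At shared sites the summits of both times lay close, a median of 14 bp apart, and 82.3% within 50 bp. A summit found only at 24 h lay a median of 25971 bp from the nearest 4 h summit, and 6.08% lay within 2000 bp of one. The lowest local background, which scales with read number and fragment length, was a pileup of 4.05 at 4 h and 3.07 at 24 h. When the 4 h pileups were scaled to the 24 h background, 37831 of the 4 h peaks were kept and the ratio of peak numbers was 0.796 instead of 0.771.

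**Figure D1:**
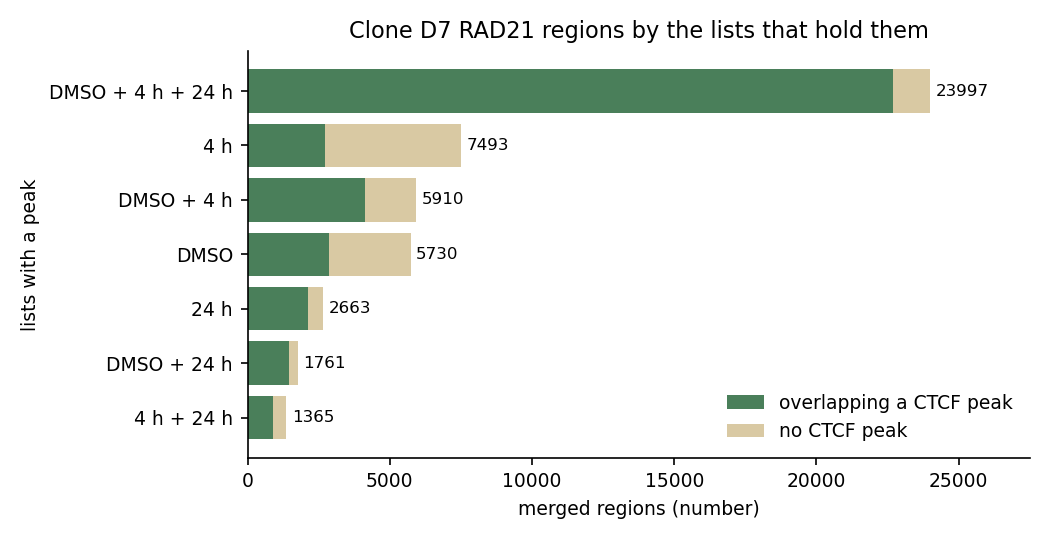
Regions of the 3 merged clone D7 RAD21 lists by the lists that hold them. Bars give the number of regions, written beside each, and colours divide each bar into regions with and without a CTCF peak. Regions in all 3 lists number 23997, and those only at 4 h number 7493 against 2663 only at 24 h.

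Placing the untreated control beside both times divided the sites further. Of 48919 regions in the 3 merged lists, 23997 were in all 3, and 94.5% of these held a CTCF peak. Another 5910 were shared by DMSO and 4 h and not by 24 h, with CTCF at 69.9%. The 7493 regions found at 4 h alone had CTCF at 36.6%, the lowest share of the 7 patterns. The 2663 regions at 24 h alone had it at 79.4%. A further 1761 regions were shared by DMSO and 24 h and not by 4 h, and 5730 were in DMSO alone. Of the peaks only at 4 h, 44.9% overlapped the DMSO list, against 40.7% of those only at 24 h, a difference of 4.23 points (2.56 to 5.89). That direction turned when sharing required 50% of both peaks (51.1% against 57.6%) or summits within 200 bp (48.3% against 51.6%). The direction also turned among peaks without a CTCF peak (28.7% against 37.2%), whereas with one the shares were 60.5% and 41.5%.

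Sites found only at 4 h were weak. Their median fold was 4.19 and their highest 28.7, against a median of 13.7 for the 4 h peaks in both lists. Their median width was 481 bp, against 792 bp. Sites found only at 24 h reached further up their own list, with a median fold of 6.36 and a highest of 74.4, against 13.3 for the 24 h peaks in both. In the lowest decile of the 4 h list by fold 14.3% of peaks recurred at 24 h, and in the highest decile all 3906 did. In the 24 h list the same shares were 68.4% and 99.3%. The upper 50% of the 4 h list held 1265 of the peaks found only at 4 h, and the upper 50% of the 24 h list held 808 of those found only at 24 h.

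**Figure D2:**
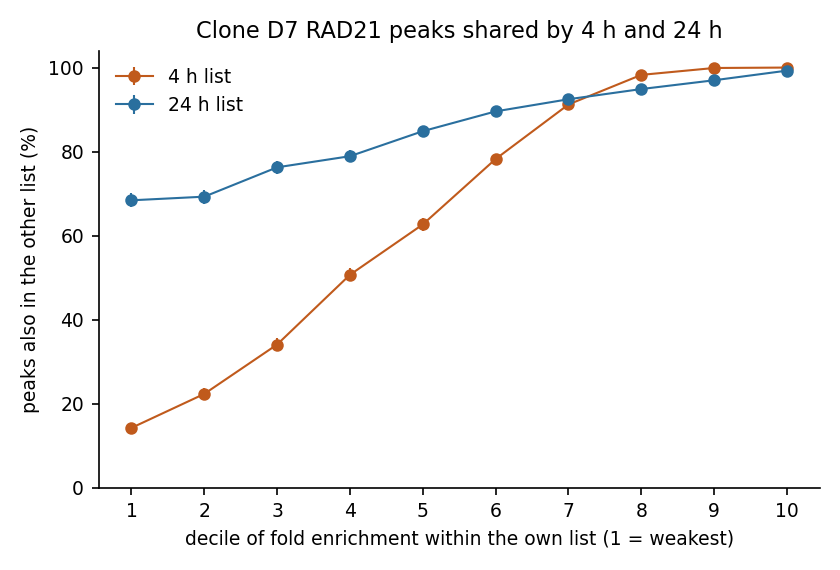
Share of peaks also found at the other time, in percent with 95% Wilson intervals, by decile of fold within each list. The share runs from 14.3% to 100% in the 4 h list and from 68.4% to 99.3% in the 24 h list.

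CTCF sites and gene ends separated the 2 kinds of site. A CTCF peak overlapped 51.0% of the peaks only at 4 h and 80.5% of those only at 24 h, 29.5 points more (28.1 to 30.9), against 92.7% of the 4 h peaks in both lists. With both lists cut to equal length by fold the shares were 74.3% and 75.3%, and the interval for 4 h minus 24 h was -2.53 to 0.536 points, so the CTCF difference was not detectable there. A gene end, here either end of a protein-coding gene within 1 kb of the summit, was met by 24.1% of the peaks only at 4 h and by 5.86% of those only at 24 h. The difference of 18.2 points (17.2 to 19.2) was 7.29 points (6.04 to 8.53) at equal length. The 4 h peaks in both lists gave 13.4%, which lay between them. Without a CTCF peak the shares were 24.5% only at 4 h, 14.1% only at 24 h and 28.1% for the 4 h peaks in both lists. The ends concerned were mostly starts. A transcription start lay within 1 kb of 19.7% of the summits only at 4 h and 3.61% of those only at 24 h, whereas the far end of a transcript did so for 1.82% and 1.22%. The 4 h summits in both lists gave 9.51% for starts and 1.91% for far ends. Starts on chromosome 8 were not used. Inside protein-coding genes the groups were close, at 53.5% and 53.7%, with an interval for the difference of -1.88 to 1.49 points. This closeness did not hold within subsets. Without a CTCF peak the shares were 54.4% only at 4 h and 46.8% only at 24 h, and with one 52.7% and 55.4%. The intervals for 4 h minus 24 h were 4.10 to 11.1 and -4.71 to -0.714 points. For the 1265 and 808 peaks counted above in the upper part of their lists, the shares were 44.8% and 55.6%. The interval there was -15.1 to -6.34 points. Of all 4 h peaks in both lists, 45.8% lay inside such genes. Where a CTCF peak was present, the RAD21 summit lay a median of 32 bp from the CTCF summit at sites only at 4 h and 21 bp at sites only at 24 h.

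Promoters carried this split to single genes. Of 15812 promoter windows, 2498 overlapped a RAD21 peak at 4 h and not at 24 h, 131 at 24 h and not at 4 h, and 1829 at both times. Occupied promoters numbered 3969 (25.1%) for DMSO, 4327 (27.4%) for 4 h and 1960 (12.4%) for 24 h, so the 2 dTAGV-1 times of clone D7 stood on either side of the control. In clone A2 the same counts were 3322 in DMSO, 692 at 4 h and 1298 at 24 h. The 2498 promoters had a median G+C content of 67.7% and 29 CpG, and 51.8% of them overlapped a DMSO peak of clone D7. The 131 promoters had 64.3% and 23, and the 11354 promoters with neither had 60.0% and 17. A CTCF peak overlapped 42.3% of the 2498, 37.4% of the 131, 73.4% of the 1829 and 11.7% of the promoters with neither.

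CTCF sites themselves, 59138 in wild-type cells, were occupied by RAD21 at 52.8% in DMSO, 51.6% at 4 h and 45.9% at 24 h. Occupied at 4 h and not at 24 h were 6930 sites (11.7%), and 3594 (6.08%) showed the opposite. Near transcription starts the difference was wide. Among 4783 CTCF sites within 1 kb of a start, 65.1% were occupied at 4 h and 40.6% at 24 h, with 61.9% in DMSO. Of these, 25.9% were occupied only at 4 h and 1.42% only at 24 h. Among 26312 CTCF sites over 50 kb from a start the shares were 48.1% at 4 h and 46.2% at 24 h, with 9.74% only at 4 h and 7.79% only at 24 h. By strength of the CTCF peak, sites only at 4 h were most frequent in decile 5, at 17.1%, and sites only at 24 h in decile 7, at 13.2%. In the strongest decile 5.82% of sites were occupied only at 4 h and 0.592% only at 24 h.

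**Figure D3:**
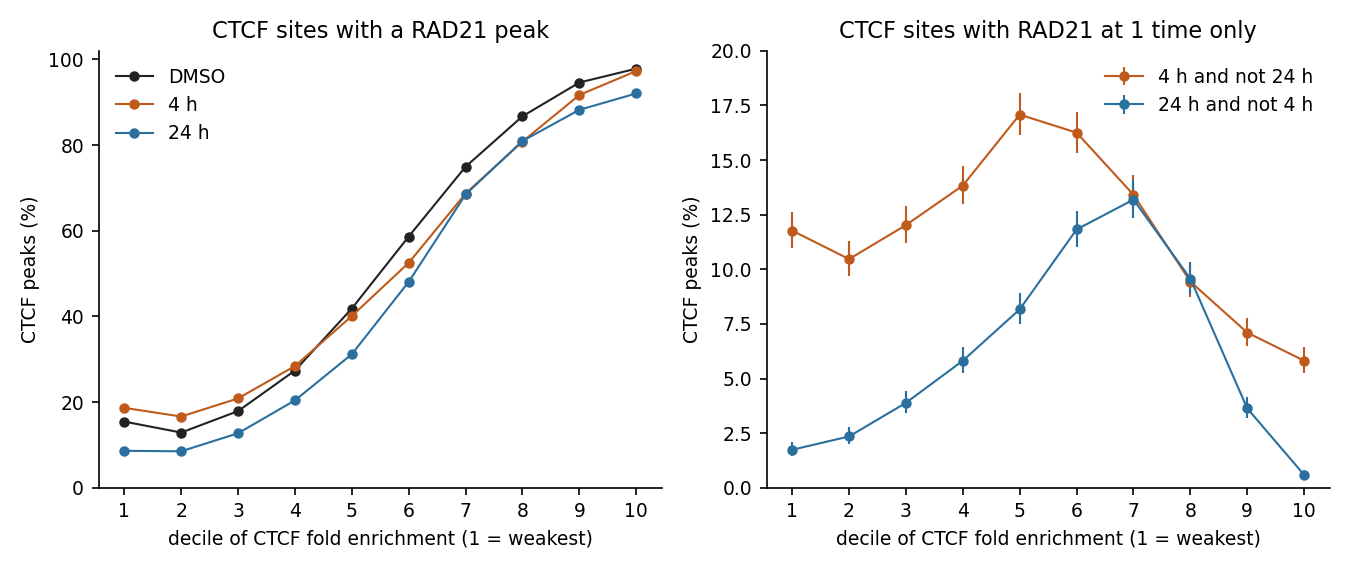
Share of wild-type CTCF sites occupied by clone D7 RAD21 at one time and not the other, in percent with 95% Wilson intervals, by decile of fold in the CTCF list. Sites only at 24 h make up 13.2% of decile 7 and 0.592% of the strongest decile.

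Gene-rich DNA had fewer of its 4 h sites at 24 h. The ratio of 24 h to 4 h peak numbers was 0.951 where no protein-coding gene was centred within 250 kb of the summit. It was 0.854 with 1 to 2 genes, 0.782 with 3 to 5, 0.707 with 6 to 10 and 0.619 with 11 or more. Along the same classes the share of 24 h peaks found only at 24 h went from 26.3% to 5.51%, and that of 4 h peaks found only at 4 h from 30.0% to 41.8%. In clone A2 the ratio ran from 1.01 to 1.14. All 23 chromosomes had fewer peaks at 24 h, from a ratio of 0.581 on chromosome 19 and 0.618 on chromosome 22 to 0.860 on chromosome 13 and 0.930 on chromosome 4.

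**Figure D4:**
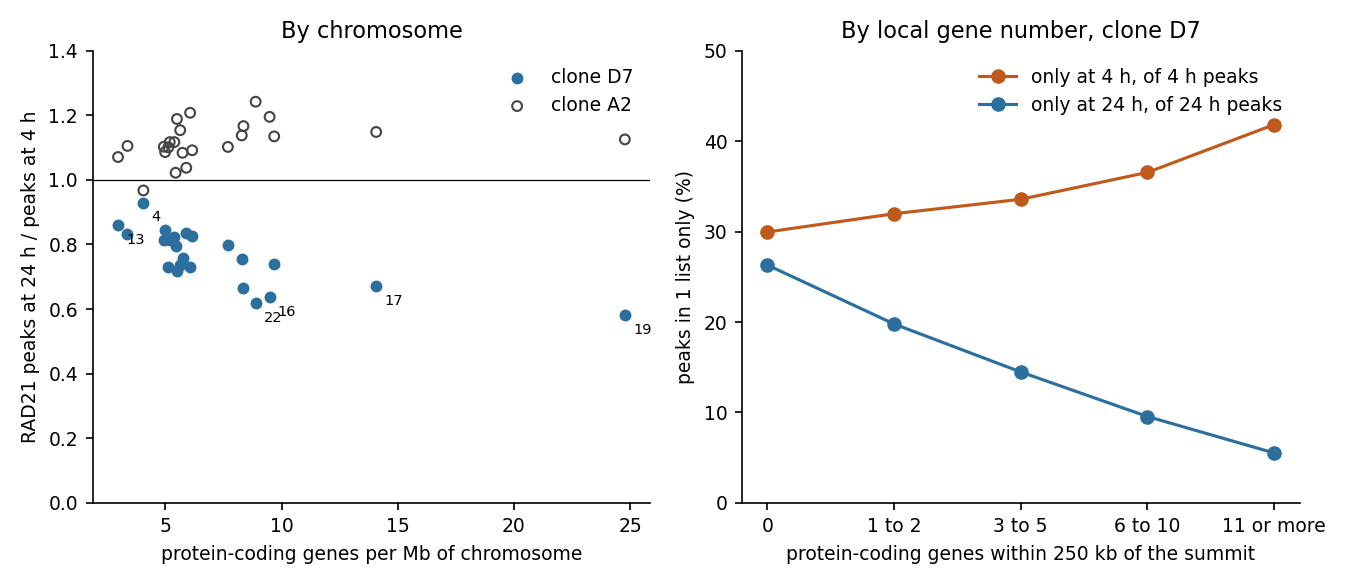
Ratio of 24 h to 4 h RAD21 peak numbers in each clone, by protein-coding genes per Mb of chromosome. The other panel gives the share of clone D7 peaks found at a single time, in percent, by number of protein-coding genes centred within 250 kb. By chromosome the clone D7 ratio runs from 0.581 to 0.930 and the clone A2 ratio from 0.967 to 1.24. The share only at 24 h runs from 26.3% to 5.51%.

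Other cohesin lists held the 2 kinds of site in different proportions. STAG1 overlapped 28.5% of the peaks only at 4 h and 11.9% of those only at 24 h, and PDS5A 30.3% and 7.75%. STAG2 went the other way, with 7.90% and 43.9%, a difference of 36.0 points (34.5 to 37.5). WAPL, with 2667 peaks, overlapped 0.0588% and 0.356%. All these shares were below those of the 4 h peaks in both lists. For the latter, STAG1 gave 80.5%, PDS5A 65.2%, STAG2 64.5% and WAPL 10.3%. Of the peaks only at 24 h in clone D7, 57.2% overlapped the 4 h list of clone A2 and 26.1% its 24 h list. Those only at 4 h gave 9.84% and 18.8%. Of the sites only at 24 h in clone D7, 1929 (43.0%) lay in the 4 h and not the 24 h list of clone A2. Another 535 (11.9%) lay in its 24 h and not its 4 h list. The 24 h peaks in both clone D7 lists gave 3.22% and 11.3%. The order turned in the 874 peaks only at 24 h without a CTCF peak. The clone A2 4 h list held 4.92% of these and its 24 h list 19.3%. The other 4 settings computed for these lists kept the order for peaks only at 24 h, with and without CTCF together. These overlapped the clone A2 4 h list and STAG2 more often than the clone A2 24 h list and STAG1.

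Stronger sites differed further between lists. The split at the middle of the fold order and the order of lists given here were chosen after the values were seen. Of the 808 peaks only at 24 h in the upper 50% of their list, 98.9% were in the clone A2 4 h list, 98.8% in that of clone A2 in DMSO and 90.2% in STAG2. The shared peaks in the upper 50% of the 24 h list gave nearly the same shares there, 98.9%, 99.7% and 89.1%, and differed from the 808 in the other lists. Of the 808, 33.9% were in the clone D7 DMSO list, 12.1% in the clone A2 24 h list, 7.80% in STAG1 and 2.35% in PDS5A, against 99.4%, 97.4%, 91.7% and 74.6% of those shared peaks. In the same sequence the narrowest peak of each list was 262, 283, 310, 337, 344, 348 and 353 bp. That of the 4 h list was 336 bp and of the 24 h list 317 bp. The order did not extend to CTCF, whose narrowest peak was 322 bp, or to WAPL, at 256 bp. CTCF held 99.9% of the 808, and WAPL, with 2667 peaks in all, held 1.61%. The first 3 lists and the other 4 in the sequence cut across clone and treatment. The part in the result of fragment length, of base composition or of exchanged libraries was not tested, and the peak lists hold no independent check of the labels. All but 1 of the 808 held a CTCF peak, and 18.1% had no protein-coding gene centred within 250 kb, against 8.18% of the shared peaks in the upper 50% of the 24 h list. The lists fell into blocks: 723 of the 808 (89.5%) were in all of the first 3, and 465 (57.5%) were also in none of the other 4. The 1265 stronger peaks only at 4 h were in the clone D7 DMSO list at 86.1% and in that of clone A2 at 85.2%. They were in the clone A2 24 h list at 52.9% and its 4 h list at 46.4%. PDS5A held 66.4% of them, STAG1 66.2% and STAG2 18.9%. For the shared peaks in the upper 50% of the 4 h list, in the same order, the shares were 99.1%, 98.8%, 96.9%, 93.0%, 76.9%, 91.5% and 76.9%.

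**Figure D5:**
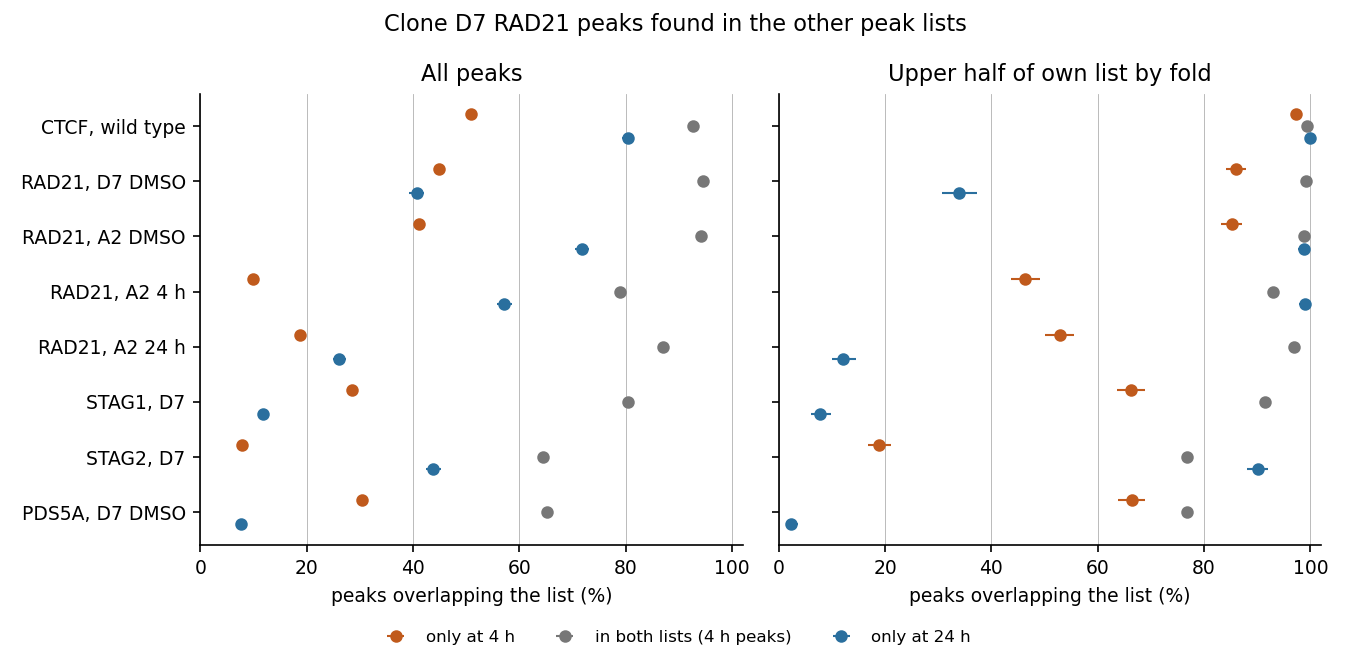
Share of clone D7 RAD21 peaks, in percent with 95% Wilson intervals, that overlap the lists of CTCF, RAD21, STAG1, STAG2 and PDS5A, for all peaks and for the upper 50% of each list by fold. Among the 8 lists plotted, PDS5A holds the smallest share of the peaks only at 24 h, 7.75% of all and 2.35% of the upper 50%, and CTCF the largest, 80.5% and 99.9%.

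The 3 strongest peaks only at 24 h all lay on chromosome 4 at CTCF peaks. The first, from 145216280 to 145217255 36162 bp from OTUD4, which encodes a deubiquitinase, had a fold of 74.4 at 24 h and no peak at 4 h or in DMSO. It was a peak of clone A2 at 4 h and in DMSO and of STAG2. The second, from 69616795 to 69617720 inside UGT2A1 and UGT2A2, genes of glucuronosyltransferases, had a fold of 70.5. The third, from 146916228 to 146917121 inside TTC29, a gene of sperm flagella, had a fold of 59.5. Like the first, both were peaks of clone A2 in DMSO and at 4 h and of STAG2, and of none of the STAG1, PDS5A, clone D7 DMSO and clone A2 24 h lists.

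The strongest peaks only at 4 h were also peaks in the clone D7 and clone A2 DMSO lists and in STAG1, PDS5A and both dTAGV-1 lists of clone A2. On chromosome 7, from 23276514 to 23278020 2462 bp from GPNMB, a gene of a membrane glycoprotein, the fold was 28.7 at 4 h. The peak on chromosome 2 from 176140277 to 176141050, 7967 bp from HOXD8 in the HOXD cluster of patterning genes, had a fold of 27.6. Inside GRM4, a glutamate receptor gene on chromosome 6, the peak from 34054839 to 34055856 had a fold of 26.1. These 3 were in 9, 8 and 8 of the 12 lists.

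Sites without a CTCF peak were weaker. Each is given with its nearest protein-coding gene, which was often far away. Only at 4 h, the highest folds were 12.8 at 305638 bp from UBE2V2 on chromosome 8, 9.48 at 218873 bp from RYBP, a Polycomb gene on chromosome 3, and 8.91 inside TEK, the angiopoietin receptor gene on chromosome 9. Only at 24 h, they were 19.1 at 443412 bp from SLC8A1, a sodium-calcium exchanger gene on chromosome 2, and 9.59 at 6541 bp from POLR1A, which encodes the largest subunit of RNA polymerase I. The third, with a fold of 7.87, lay 1102628 bp from EPHA6, an ephrin receptor gene. The POLR1A site was in no other list. For scale, the strongest shared peak, 256 bp from an end of the helicase gene DHX8 on chromosome 17, had a fold of 332.2 in the 4 h list.

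Gene ends were counted for 10 gene lists against all 19974 protein-coding genes, of which 18.4% had a summit only at 4 h within 1 kb of an end, 1.47% one only at 24 h and 18.5% one at both times. Among 15 genes of cohesin and its regulators, 4 had one only at 4 h: SMC3 (an ATPase subunit), WAPL, PDS5B and ESCO1 (an acetyltransferase of SMC3), with folds of 2.57, 4.84, 3.37 and 5.88. None had one only at 24 h. Immediate early and AP-1 genes had 6 of 16, namely FOSL1, FOSL2, EGR1, IER2, IER3 and ZFP36, and JUNB had one only at 24 h with a fold of 2.86. Of 12 p53 targets 4 had one only at 4 h: MDM2, BTG2, TIGAR and RRM2B. Ribosomal protein genes gave 26 of 85 only at 4 h, and RPL4 had one only at 24 h at a fold of 3.91.

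The other 6 lists gave shares of 18.8% or less only at 4 h. YAP-TEAD and TGF-beta targets gave 3 of 16 only at 4 h, with AXL, a receptor tyrosine kinase gene, at a fold of 11.5, and 12 of 16 had a summit at both times. Cell cycle genes gave 3 of 16, CCNA2, E2F1 and PLK1, and CCNE2 had one only at 24 h at a fold of 5.31. Clustered protocadherins gave 5 of 53 only at 4 h and 23 at both times. The histone gene list, drawn up as replication-dependent, gave 9 of 76, with H1-10 counted among the 9. HOX genes gave 2 of 39 and retinal pigment epithelium genes 1 of 16, which was RDH5, a retinol dehydrogenase gene, at a fold of 7.43. In these 6 lists CCNE2 was the sole gene with a summit only at 24 h. Neighbouring genes can share 1 summit, as H2BC8 and H2AC8 did, and a gene can have summits of more than 1 kind.

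Ranked by the number of peaks inside the gene, the leading genes differed between peaks only at 4 h and only at 24 h. Such peaks lay in 5327 genes for 4 h and in 1853 for 24 h. Over all peaks, 34.8% of the 4 h list and 14.9% of the 24 h list were found at a single time. The span listed for RANBP2, a nucleoporin gene, held 13 peaks only at 4 h, with 29 peaks in all at 4 h, 19 at 24 h and 24 in DMSO. HIVEP3 and SEPTIN9 held 12 each, TSPAN9 11 and ATP2B2 10. SEPTIN9, a septin gene, had 16 peaks at 4 h, 4 at 24 h and 15 in DMSO. CAST, the calpastatin gene, held 13 peaks only at 24 h, with 12 at 4 h, 19 at 24 h and 16 in DMSO. ERBB4, a receptor tyrosine kinase gene, held 8, with 3 at 4 h, 10 at 24 h, 4 in DMSO and, in clone A2, 11 at 4 h and 3 at 24 h. ATRNL1, EYS and ROBO1 held 7 each. Gene spans are those of the RefSeq table, where RANBP2 covers 1122820 bp, CAST 813255 bp and SEPTIN9 219098 bp. Each count covers the whole listed span, so peaks in other genes within a span are counted too. The counts were not divided by length.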

How the data were processed

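RAD21 was precipitated from clone D7 after 4 h and 24 h of dTAGV-1, 1 library each, and peaks were deposited per library without replicates. The authors deposited a fold enrichment ratio, a −log10 p, a −log10 q and a score for each peak, per the layout of the files. Fold values were used only within their own list, and scores were not analysed. The submitters' processing notes name BWA, Picard, SAMtools, bedtools, deepTools and MACS2 and the builds hg38 and mm10. They give no version, role or setting here. No spike-in factor was used.

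Overlaps, distances and shares were computed with Python 3.11.15, pandas 2.3.3 and scipy 1.17.1, and the overlap code was tested on simulated data. Read totals were not used. Depth was taken from the background pileup recovered from fold and p, for peaks with a −log10 p under 250. Genes came from a RefSeq table of GRCh38.p14, 19974 protein-coding genes without strand. Starts came from 15812 matched RefSeq promoter windows on 22 chromosomes. Sequence of the peaks, exons and introns were not analysed here.

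Named peaks are the 3 with the highest fold in each class with and without CTCF, and the 3 strongest at 4 h among shared peaks. Named genes are the 5 with most peaks of a class and list members with a summit within 1 kb of an end. The members, lists and rules were chosen with earlier results of these data known. Alternatives were a −log10 q of at least 10, lists of equal length, 50% overlap, summits within 200 bp, 4 h pileups scaled to the 24 h background, the upper 50% of CTCF peaks, and gene ends within 2.5 kb.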

Additional observations from a re-analysis of the deposited data

Results flagged for a closer look

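The 24 h list differed from the 4 h list with opposite signs in the 2 clones, in each of the 3 measures compared, and with 1 library a group the difference between clones was not tested. Whether libraries were exchanged was not tested either, and an exchange could change these signs. The number of RAD21 peaks at 24 h was 0.771 times that at 4 h in clone D7 and 1.11 times in clone A2. The share of peaks with a CTCF peak was higher at 24 h by 12.5 points in clone D7, and the difference of 24 h minus 4 h was -7.15 points in clone A2. For the share with a summit at a gene end that difference was -4.78 points in clone D7 and 2.49 points in clone A2. The lists held 39059 and 30114 peaks at 4 h and 24 h in clone D7, and 25763 and 28589 in clone A2. Among them, the longer the list, the lower was its CTCF share and the higher its gene-end share. At equal length the CTCF difference between clone D7 peaks found at a single time was not detectable, and the gene-end difference was 7.29 points. No equal-length value is given for clone A2.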

How the results depend on the processing

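No paired analysis was possible because each group held 1 library, and for the same reason no replicate could be left out. The ratio of peak numbers was 0.903 with peaks held to a −log10 q of 10 or more, and 0.796 after scaling. The share of 4 h peaks found at 24 h was 76.4% at that q, 79.3% at equal length, 59.6% with 50% overlap, 62.1% by summits within 200 bp and 67.1% after scaling. The reverse share was 79.9% at equal length, 77.3% with 50% overlap and 80.5% by summits. For peaks only at 4 h and only at 24 h, CTCF was met by 76.0% and 94.7% at that q, 74.3% and 75.3% at equal length, 52.1% and 76.8% by summits, and 23.5% and 51.9% with the upper 50% of CTCF peaks. It was met by 54.9% of those only at 4 h with 50% overlap and by 54.1% after scaling. Gene ends were met by 20.2% and 4.69% at that q, 18.4% and 11.1% at equal length, 25.2% and 14.9% with 50% overlap, 25.4% and 13.5% by summits, and 30.8% and 9.78% within 2.5 kb. The DMSO list was met by 71.4% and 50.7% at that q, 62.7% and 49.1% at equal length, 51.1% and 57.6% with 50% overlap, and 48.3% and 51.6% by summits. After scaling it was met by 47.7% of those only at 4 h. The remaining 7 values moved by less than their counting interval. The gene-end difference kept its direction under the 6 alternatives that could change it, the CTCF difference lost most of its size at equal length, and the DMSO difference changed direction under 2. Of the 3905 weakest 4 h peaks 3348 had no 24 h peak, and after scaling to the 24 h background 12451 peaks were still found only at 4 h. Background pileup also depends on fragment length, so the part of depth in these counts was not tested on its own.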
